A study of Mus musculus with 47 samples.

Results

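The 9 genes described here, *Tff3*, *Moxd1*, *Clec2h*, *Pde6c*, *Wfdc2*, *Mypop*, *Paip2b*, *Shq1* and *Pknox1*, share no pathway. They were selected on the measured difference of their liver mRNA between antibiotic-treated (ATB) and control mice in at least 1 group, so their ATB differences are given as a description. The 9 genes have 16 probes among the 56605 gene probes of the array, and all 16 passed the filter on dim probes that left 32975 probes of 21874 genes. Liver RNA of 47 mice was measured on 1-color arrays, 1 mouse per array. The mice were C57Bl6/J littermates aged 6 months, male or female, with both copies of *Pxr* (Pxr+/+) or with neither (Pxr-/-). *Pxr* (*Nr1i2*) encodes the pregnane X receptor. ATB mice drank ampicillin at 1 g/L, neomycin at 1 g/L and vancomycin at 0.5 g/L for 2 weeks, control mice drank no antibiotics, and all were killed at zeitgeber time 6 h. Each of the 8 groups held 6 mice, except Pxr-/- control males with 5. Each group was housed in 2 cages that held no other group, so cage and group cannot be told apart. Pxr-/- mice lacked the receptor from birth in all tissues.

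The pregnane X receptor is a nuclear receptor that binds drugs, bile acids and bacterial metabolites and switches on detoxifying genes in hepatocytes. Blood from the gut reaches the liver through the portal vein, so hepatocytes meet bacterial products before most other cells do. Many liver genes differ between the sexes in rodents, largely because males secrete growth hormone in pulses and females more steadily, and STAT5 is the transcription factor that carries this signal in hepatocytes. Among the 9 genes, *Tff3* and *Wfdc2* encode small secreted proteins, *Moxd1* and *Pde6c* enzymes, *Clec2h* a lectin of the cell surface, *Mypop* and *Pknox1* DNA-binding proteins, and *Paip2b* and *Shq1* proteins that act on the handling of RNA.

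Promoters are shown for *Moxd1*, *Clec2h* and *Wfdc2*, of which *Moxd1* was higher with ATB in males, *Clec2h* was higher in both sexes and *Wfdc2* was lower in both. The sequences are from RefSeq on the build GRCm38.p6, all on the + strand, and run from 250 bases before to 50 bases after the start of the gene. Promoters were matched for 6 of the 9 genes, not for *Tff3*, *Pde6c* or *Pknox1*. Capitals mark matches on either strand to AGGTCA (the core site of nuclear receptors), TTCNNNGAA (the STAT5 motif) or GGGCGG (a GC box).
Moxd1, chr10:24223267-24223566: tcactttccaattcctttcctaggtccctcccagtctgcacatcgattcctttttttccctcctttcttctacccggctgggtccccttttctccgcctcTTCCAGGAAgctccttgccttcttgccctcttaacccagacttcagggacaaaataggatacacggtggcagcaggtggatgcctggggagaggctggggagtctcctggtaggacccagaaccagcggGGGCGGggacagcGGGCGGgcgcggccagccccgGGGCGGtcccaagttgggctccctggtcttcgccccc
Clec2h, chr6:128662135-128662434: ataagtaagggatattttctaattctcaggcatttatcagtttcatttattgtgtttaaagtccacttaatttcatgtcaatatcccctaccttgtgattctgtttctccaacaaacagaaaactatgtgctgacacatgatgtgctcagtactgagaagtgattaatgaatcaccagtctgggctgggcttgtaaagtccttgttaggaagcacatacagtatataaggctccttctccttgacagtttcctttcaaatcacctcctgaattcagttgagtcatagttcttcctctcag
Wfdc2, chr2:164562465-164562764: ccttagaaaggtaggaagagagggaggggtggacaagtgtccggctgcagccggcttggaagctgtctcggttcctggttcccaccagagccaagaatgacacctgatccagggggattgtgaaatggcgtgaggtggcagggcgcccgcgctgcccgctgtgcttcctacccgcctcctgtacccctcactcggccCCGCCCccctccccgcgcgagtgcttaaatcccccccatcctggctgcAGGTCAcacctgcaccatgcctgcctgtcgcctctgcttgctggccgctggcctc

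The *Moxd1* promoter had a GC content of 61.7% and held the STAT5 motif once, starting at -150 from the start of the gene, and GC boxes at -21, -8 and 13. The *Wfdc2* promoter held the nuclear receptor core site at -5 and, on the other strand, a GC box at -53. The *Clec2h* promoter, with a GC content of 38%, held none of these motifs. Of 32851 promoters of the same length, 16.3% held the core site, 8.3% the STAT5 motif and 35.7% the GC box. The E box CACGTG, in 7.15% of all promoters, was found in none of the 6. The exact letters TATAAA, a form of the TATA box in 13.6% of all promoters, were also found in none of them. Other forms of the TATA box were not searched for. Binding was not measured, and a match says only that the letters are present in the window.

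Levels are log2 normalized signals of 1 probe each and are compared between mice, not between probes. The 75th percentile of the signal lay between 214 and 343 on the 47 arrays against a local background of 15 to 21, and 31070 to 34458 gene probes per array were well above background. The 7 hepatocyte markers tested were well above background in every mouse. The *Nr1i2* probe lies near the end of the transcript, from base 2157, and was well above background in all 47 mice, so it does not check the deletion. Over all probes tested, the median log2 difference between ATB and control mice was 0.10 in Pxr+/+ males and between -0.06 and 0.06 in the other groups, and males stood -0.11 (Pxr+/+) and -0.15 (Pxr-/-) below females. The array of Pxr+/+ control female 1 and that of Pxr+/+ ATB female 1, on the same slide, resembled each other more than any other pair. Over 10892 bright probes their log2 signals differed with an SD of 0.135, against 0.223 for the next closest pair of all and a median of 0.315 for mice of a group. The cause was not tested. ATB differences in Pxr+/+ females are given with and without them for the genes in which they are above 0.2 in size.

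**Figure D1:**
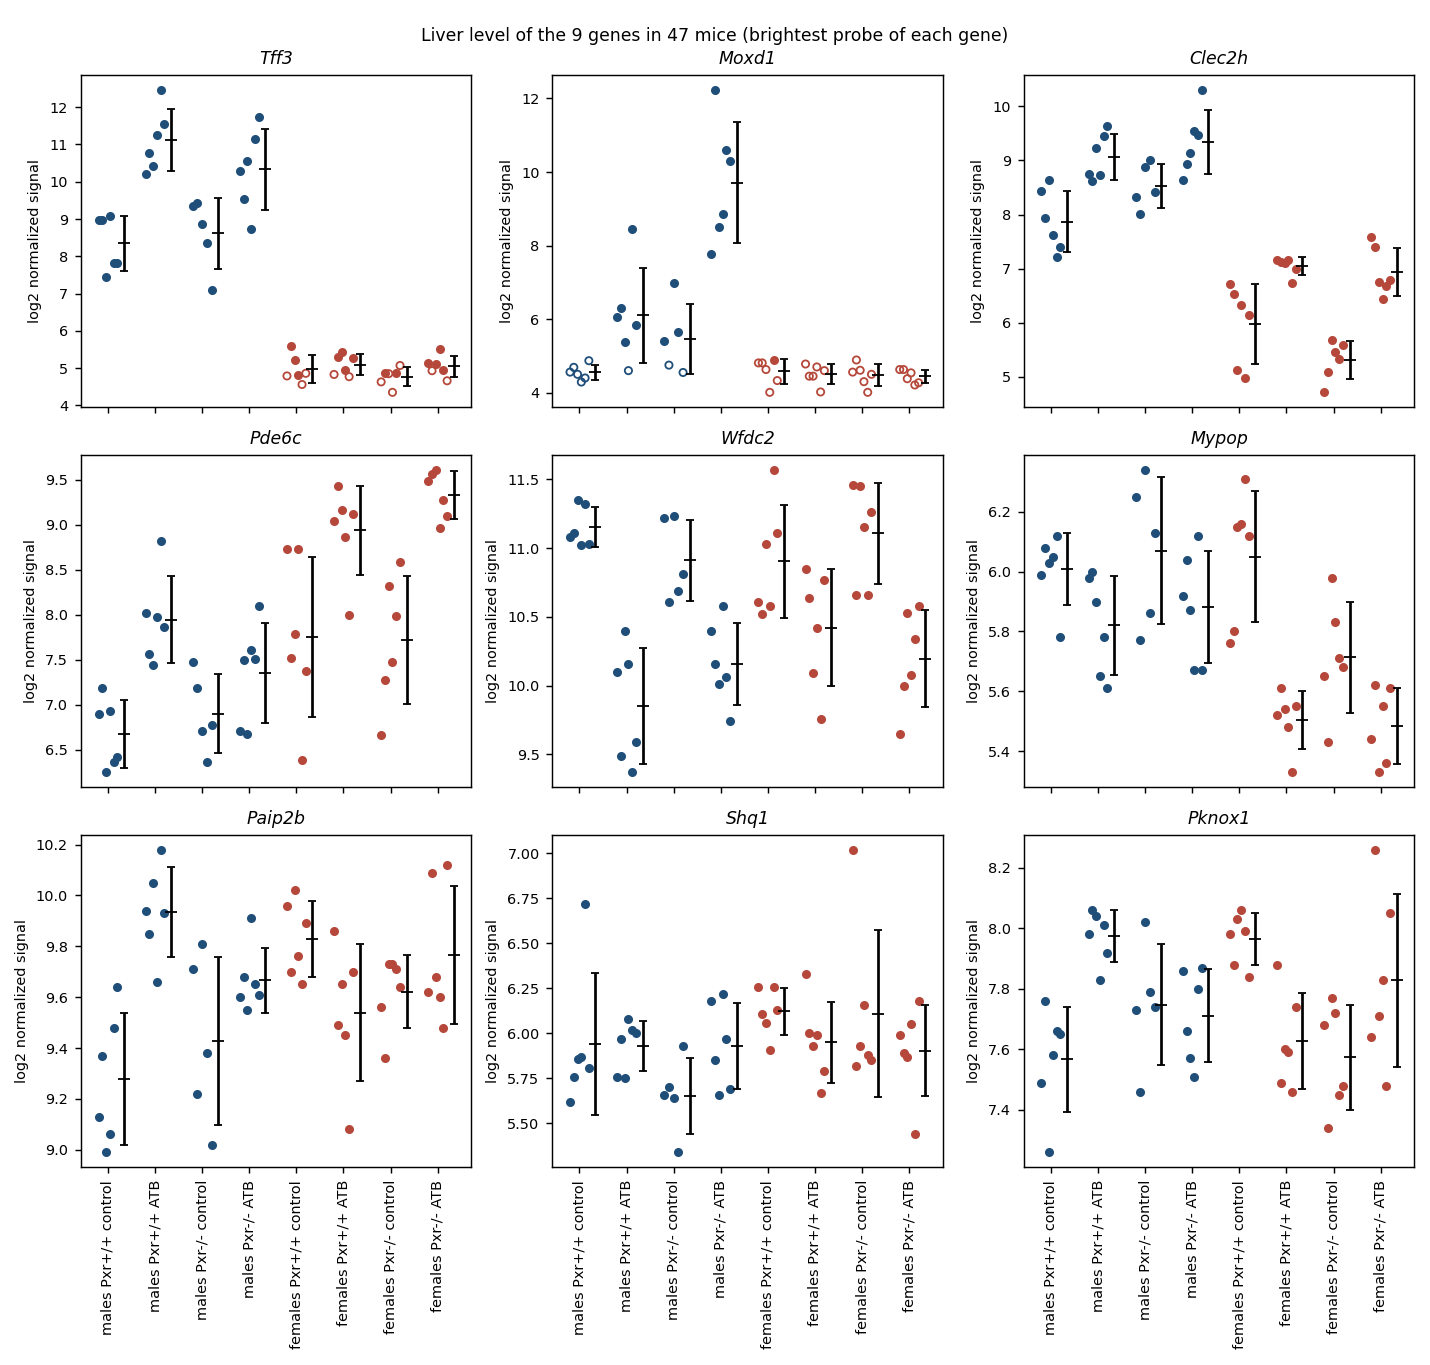
Level of each of the 9 genes (brightest probe, log2 normalized signal) in every mouse of the 8 groups, with the group mean ± SD as bars; blue is male, red is female, and open circles are spots not well above background. *Tff3* lay above 7 in every male and below 6 in every female, and *Moxd1* exceeded 7 in all 6 Pxr-/- ATB males.

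*Tff3* encodes trefoil factor 3, a peptide that goblet cells secrete with mucus and that protects and repairs mucosal surfaces. In control males its level ran from 7.45 to 9.09 (median 8.39) in Pxr+/+ mice and was 9.35, 9.43, 8.87, 8.36 and 7.10 in the 5 Pxr-/- mice. In ATB males it ran from 10.21 to 12.47 (median 11.01) in Pxr+/+ and from 8.73 to 11.75 (median 10.42) in Pxr-/- mice. All Pxr+/+ ATB males were thus above all Pxr+/+ control males, and the Pxr-/- ranges overlapped. The ATB difference was 2.76 ± 0.37 (SE) on the log2 scale in Pxr+/+ males, which is 6.79-fold, and 1.71 ± 0.39 in Pxr-/- males. Each of the 3 wash batches, the sets in which arrays were washed, showed it higher with ATB, by 2.01, 3.41 and 3.74 in Pxr+/+ and by 0.74, 1.62 and 4.03 in Pxr-/- males. These batches held 6, 4 and 2 of the Pxr+/+ males and 5, 4 and 2 of the Pxr-/- males, so the last values rest on 2 mice each.

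In females *Tff3* lay between 4.35 and 5.60, and its spot was well above background in 13 of 24 mice, against 23 of 23 males. The female ATB differences were 0.12 ± 0.37 in Pxr+/+ and 0.27 ± 0.37 in Pxr-/- mice. All males stood above all females in both genotypes. Averaged over control and ATB mice, males exceeded females by 4.70 (95% interval 4.17 to 5.23) in Pxr+/+ and by 4.57 (4.02 to 5.11) in Pxr-/- mice. The probe passed the filter on dim probes through the males, and many female spots were at background, so these differences are limited by the background and are given without a test. Among control mice alone the sex differences were 3.38 and 3.85, and among ATB mice 6.03 and 5.29. The genotype difference in males, -0.26 (-0.80 to 0.29), did not pass the test (limma over all probes tested, adjusted p = 0.596). In females it was -0.12 (-0.65 to 0.41). With many female spots at background it cannot show whether the genotypes differ, and it is given without a test. In bulk liver, fewer cells of a type and less RNA per cell cannot be told apart. Of 7 markers of intestinal and secretory cells, *Muc2*, *Agr2*, *Spink4* and *Cdx2* were too dim to be tested. The other 3, *Vil1*, *Fabp2* and *Muc5b*, were tested. Their mean level ran from 8.03 to 8.37 in Pxr+/+ control males and from 8.25 to 8.80 in Pxr+/+ ATB males. In Pxr+/+ control females it ran from 8.02 to 8.81. The mean level of the 8 bile duct markers tested ran from 6.57 to 7.38 in Pxr+/+ control males and from 6.47 to 7.29 in Pxr+/+ ATB males.

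*Wfdc2* encodes a secreted protein with whey acidic protein domains, a family with many protease inhibitors. It was lower with ATB in all 4 combinations of sex and genotype, as was *Mypop*. In Pxr+/+ males it ran from 11.02 to 11.35 (median 11.10) in controls and from 9.37 to 10.40 (median 9.85) with ATB. The 5 Pxr-/- control males had 11.22, 10.61, 11.23, 10.69 and 10.81, and the Pxr-/- ATB males 9.74 to 10.58 (median 10.11). Neither pair of male groups overlapped. In females the controls ran from 10.52 to 11.57 (median 10.82) in Pxr+/+ and from 10.66 to 11.46 (median 11.21) in Pxr-/- mice, and the ATB mice from 9.76 to 10.85 (median 10.53) and from 9.65 to 10.58 (median 10.21). The female groups overlapped in Pxr+/+ mice only.

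The ATB differences of *Wfdc2* were -1.30 ± 0.20 (2.46-fold lower) in Pxr+/+ males, -0.76 ± 0.21 in Pxr-/- males, -0.48 ± 0.20 in Pxr+/+ females (-0.63 without the resembling arrays) and -0.91 ± 0.20 in Pxr-/- females. Each was below 0 in all 3 wash batches, between -1.44 and -0.26. Sex and genotype did not pass the test: males less females was -0.16 (95% interval -0.44 to 0.12) among Pxr+/+ and -0.12 (-0.41 to 0.17) among Pxr-/- mice, and Pxr-/- less Pxr+/+ was 0.03 (-0.26 to 0.32) among males and -0.01 (-0.29 to 0.27) among females. The adjusted p-values lay between 0.387 and 0.982. The probe was well above background in all 47 mice.

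*Moxd1* encodes a copper-dependent monooxygenase related to dopamine beta-hydroxylase. Its signal was highest in Pxr-/- ATB males. The 6 mice of that group ran from 7.77 to 12.24 (median 9.59), with an SD of 1.64, so the spread among them was wide. The Pxr-/- control males had 5.41, 4.75, 6.97, 5.65 and 4.55, and the Pxr+/+ ATB males ran from 4.60 to 8.44 (median 5.94). Pxr+/+ control males ran from 4.29 to 4.87, with 0 of 6 spots well above background, and among the 24 females 1 spot was. Pxr-/- ATB males overlapped no group except Pxr+/+ ATB males, in which 1 mouse reached 8.44. Pxr-/- ATB males stood at least 32.1-fold above Pxr+/+ control males and at least 32.6-fold above Pxr-/- ATB females, these being bounds against the dimmest signal well above background. The mean of Pxr+/+ ATB males stood 2.63-fold above the same limit in Pxr+/+ control males. It is no strict bound, because only 5 of their 6 spots were well above background.

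The ATB difference of *Moxd1* was 4.25 ± 0.49 (19.02-fold) in Pxr-/- males and 1.55 ± 0.46 in Pxr+/+ males. In females it was -0.08 ± 0.46 and -0.04 ± 0.46, between groups at background. Within the 3 wash batches the Pxr-/- male difference was 4.43, 3.28 and 6.04, the last from 2 mice. Averages over treatments draw on the ATB males that singled the gene out, and the probe passed the filter on dim probes through the male ATB groups, so they are given without a test. Pxr-/- less Pxr+/+ was 2.26 in males, 2.04, 2.51 and 2.22 within the wash batches, and -0.08 in females, whose groups were at background. Among ATB males it was 3.61 ± 0.46. Among control males it was 0.91 ± 0.49 and was not called. Only 3 of 5 Pxr-/- and 0 of 6 Pxr+/+ spots were well above background there, so this does not show that the genotypes were alike. Males less females in Pxr-/- mice was 5.27 among ATB mice and 0.99 among control mice, where it was not called. That comparison is limited by the background too. Pxr-/- control males, 3 of whose 5 spots were well above background, had a mean of 5.46. Pxr-/- control females, with 0 of 6, had a mean of 4.48.

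*Clec2h* encodes a C-type lectin-like protein of the cell surface, from a family that Klrb1 receptors of natural killer cells recognise. It was higher with ATB in each of the 4 combinations of sex and genotype. Pxr+/+ males ran from 7.21 to 8.63 (median 7.78) without and from 8.62 to 9.63 (median 8.99) with ATB. Pxr-/- control males had 8.33, 8.01, 8.88, 9.01 and 8.41, and Pxr-/- ATB males ran from 8.64 to 10.31 (median 9.31). Both pairs of male groups overlapped, the Pxr+/+ pair by a single control mouse. Pxr+/+ females ran from 4.97 to 6.72 (median 6.23) and with ATB from 6.73 to 7.15 (median 7.11). Pxr-/- females ran from 4.71 to 5.68 (median 5.39) and with ATB from 6.44 to 7.58 (median 6.77). No female ATB group overlapped its control group.

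The ATB differences of *Clec2h* were 1.2 ± 0.28 and 0.81 ± 0.29 in Pxr+/+ and Pxr-/- males, and 1.07 ± 0.28 and 1.63 ± 0.28 in Pxr+/+ and Pxr-/- females. Without the 2 resembling arrays the value in Pxr+/+ females was 1.2. All were above 0 in each wash batch (0.53 to 2.24). Averaged over treatments, males exceeded females by 1.96 (1.57 to 2.36; adjusted p = 6e-11) in Pxr+/+ mice, 3.9-fold, and by 2.81 (2.41 to 3.21; adjusted p = 2.7e-15) in Pxr-/- mice, 7.02-fold. Every male stood above every female of its genotype. The genotype differences pointed in opposite directions, 0.46 (0.06 to 0.87) in males and -0.38 (-0.77 to 0.01) in females, and none of these nor their difference of 0.85 (0.28 to 1.41) passed the test (adjusted p = 0.198, 0.366 and 0.987). Over both genotypes and treatments, the mean level of the 6 T and NK cell markers tested ran from 6.33 to 7.17 in males. In females it ran from 6.98 to 7.80, so the ranges overlapped. Whether this bears on *Clec2h* was not tested.

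*Pde6c* encodes the catalytic subunit of the phosphodiesterase that breaks down cGMP in cone photoreceptors. Its brighter probe ran from 6.25 to 7.19 (median 6.66) in Pxr+/+ control males and from 7.44 to 8.82 (median 7.92) in Pxr+/+ ATB males, without overlap. Pxr-/- control males had 7.48, 7.19, 6.71, 6.36 and 6.77, within reach of Pxr-/- ATB males at 6.67 to 8.10 (median 7.51). Pxr+/+ females ran from 6.39 to 8.73 (median 7.65) and with ATB from 8.00 to 9.43 (median 9.08), and Pxr-/- females from 6.66 to 8.58 (median 7.73) and with ATB from 8.96 to 9.61 (median 9.38). Control females were spread widely, and all Pxr-/- ATB females stood above all Pxr-/- control females. The ATB differences were 1.27 ± 0.31 and 0.45 ± 0.33 in Pxr+/+ and Pxr-/- males and 1.18 ± 0.31 and 1.61 ± 0.31 in Pxr+/+ and Pxr-/- females. In Pxr-/- males the value was -0.37, 1.32 and 0.74 in the 3 wash batches. Without the resembling arrays the value in Pxr+/+ females was 1.35.

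The other *Pde6c* probe, shown because it reports on the same gene at another place (mm9 chr19:38243871-38243930, + strand, from base 2016 of the transcript), reads as follows.
Pde6c, A_52_P286253: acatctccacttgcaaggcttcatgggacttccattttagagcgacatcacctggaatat
It was well above background in 3 of 23 males and 20 of 24 females. Its ATB differences were 0.43, 0.06, 0.51 (0.57 without the resembling arrays) and 0.58 in the same order, and over the 47 mice it correlated with the brighter probe at r = 0.90 (0.63 after removal of the group means). Averaged over treatments, males less females came to -1.04 (-1.48 to -0.59; adjusted p = 0.000276) in Pxr+/+ and -1.40 (-1.86 to -0.94; adjusted p = 4.97e-06) in Pxr-/- mice at the brighter probe. In control mice alone these were -1.08 and -0.82, of which the latter did not pass the test (adjusted p = 0.0847), and in ATB mice -0.99 and -1.98. The other probe passed the filter on dim probes through the female ATB groups, and there Pxr-/- ATB females stood at least 1.86-fold above Pxr-/- ATB males, none of which was well above background. *Pde6c* was thus higher in females while *Clec2h* was higher in males, although both were higher with ATB in all 4 combinations. Genotype did not pass the test for it in males (-0.18, -0.64 to 0.27) or females (0.18, -0.27 to 0.62).

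**Figure D2:**
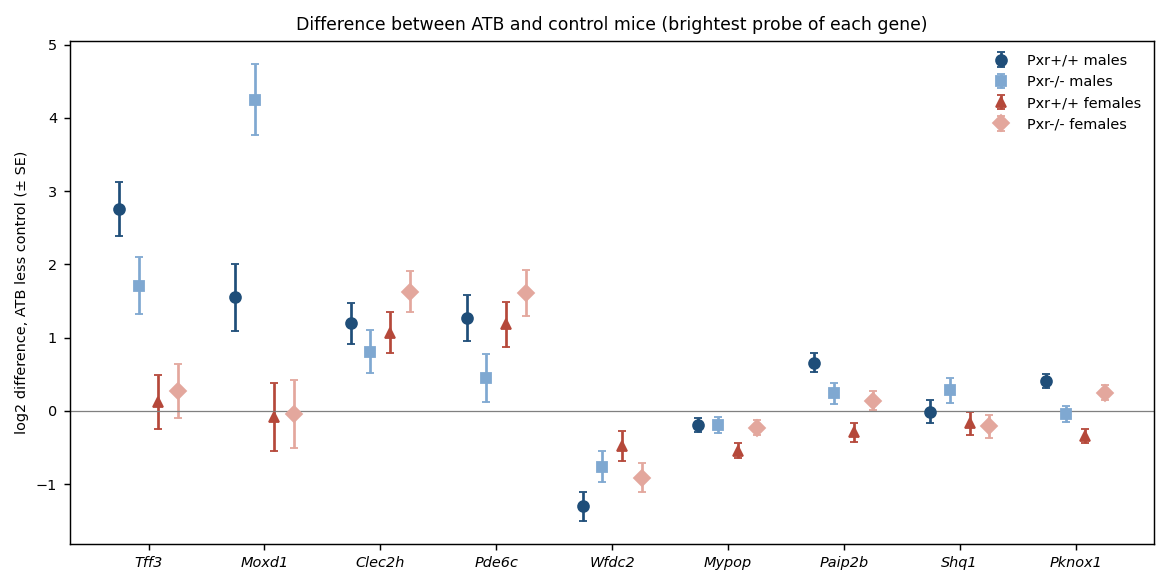
Difference between ATB and control mice for the brightest probe of each gene (log2, ± SE) in Pxr+/+ and Pxr-/- males and females. *Tff3* and *Moxd1* were higher in males, with female values between -0.08 and 0.27, *Clec2h* and *Pde6c* were higher and *Wfdc2* lower in all 4 combinations, and the other 4 genes lay between -0.54 and 0.66.

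*Mypop* encodes a Myb-related DNA-binding protein that partners with profilin. Pxr+/+ females ran from 5.76 to 6.31 (median 6.13) without and from 5.33 to 5.61 (median 5.53) with ATB, with no overlap, a difference of -0.54 ± 0.10 (-0.61 without the resembling arrays). In the other combinations the groups overlapped, and the differences were -0.19 ± 0.10 in Pxr+/+ males, -0.19 ± 0.11 in Pxr-/- males and -0.23 ± 0.10 in Pxr-/- females. Averaged over treatments, males exceeded females by 0.38 (0.23 to 0.53; adjusted p = 0.000121) in Pxr-/- mice and by 0.14 (-0.01 to 0.28; adjusted p = 0.144) in Pxr+/+ mice. The genotype differences were 0.06 (-0.09 to 0.21) in males and -0.18 (-0.32 to -0.03) in females, neither past the test.

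*Pknox1* encodes a homeodomain protein that binds DNA with Pbx factors, *Paip2b* an inhibitor of translation that binds the poly(A)-binding protein, and *Shq1* a chaperone for the assembly of H/ACA ribonucleoproteins, which modify RNA. These 3 genes had small ATB differences that depended on the probe. The brightest *Pknox1* probe ran from 7.26 to 7.76 (median 7.61) in Pxr+/+ control males and from 7.83 to 8.06 (median 7.99) with ATB, a difference of 0.41 ± 0.10. In Pxr+/+ females it ran from 7.84 to 8.06 (median 7.98) without and from 7.46 to 7.88 (median 7.60) with ATB, -0.34 ± 0.10 (-0.38 without the resembling arrays). Control males and ATB females of this genotype were low, and ATB males and control females high. In Pxr-/- mice the differences were -0.04 ± 0.11 in males and 0.25 ± 0.10 in females. The other 2 *Pknox1* probes differed by 0.08 and 0.19 in Pxr+/+ males and by -0.12 and -0.18 in Pxr+/+ females, and the 3 probes correlated over the 47 mice at r = 0.22 to 0.48.

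*Paip2b* has 4 probes. The brightest ran from 8.99 to 9.64 (median 9.25) in Pxr+/+ control males and from 9.66 to 10.18 (median 9.93) with ATB, without overlap. Its ATB differences were 0.66 ± 0.13 and 0.24 ± 0.14 in Pxr+/+ and Pxr-/- males and -0.29 ± 0.13 (-0.33 without the resembling arrays) and 0.14 ± 0.13 in Pxr+/+ and Pxr-/- females. The other probes differed by 0.32, 0.38 and 0.21 in Pxr+/+ males. The last of these, A_52_P529013 (mm9 chr6:83758861-83759926, - strand, from base 456 of the transcript, the span being wider than the probe), is shown as the probe of *Paip2b* with the smallest such difference.
Paip2b, A_52_P529013: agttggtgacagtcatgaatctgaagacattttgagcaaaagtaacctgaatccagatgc
Correlations between *Paip2b* probes over the 47 mice ran from r = 0.19 to 0.61. In the sex comparison, 1 of the 4 probes, A_55_P2717832, passed the test: males less females came to -0.30 (-0.51 to -0.09; adjusted p = 0.0237) in Pxr+/+ and -0.41 (-0.63 to -0.20; adjusted p = 0.00202) in Pxr-/- mice. The other 3 lay between -0.15 and 0.02. Both calls were lost under quantile normalization (-0.16, adjusted p = 0.23, and -0.26, a fold change below 1.2), with normexp (-0.08 and -0.17) and with ATB mice only (-0.15 and -0.30, adjusted p = 0.62 and 0.115). The former was also lost without the resembling arrays (-0.23, adjusted p = 0.102), with the processed signal (-0.25, adjusted p = 0.174) and with the authors' log2 values (-0.23, adjusted p = 0.0585).

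For *Shq1* the 2 probes gave different pictures. The probe A_55_P1992814 ran from 5.34 to 5.72 (median 5.52) in Pxr+/+ control males and from 5.95 to 6.30 (median 6.12) with ATB. Its ATB differences were 0.58 ± 0.13 and -0.03 ± 0.14 in Pxr+/+ and Pxr-/- males and -0.38 ± 0.13 (-0.41 without the resembling arrays) and 0.29 ± 0.13 in Pxr+/+ and Pxr-/- females. The probe A_51_P242591, which lies nearer the start of the transcript (from base 1101 against 1929; mm9 chr6:100580878-100580937, - strand), is shown because it did not share this pattern.
Shq1, A_51_P242591: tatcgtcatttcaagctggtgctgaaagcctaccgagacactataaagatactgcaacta
Its differences were -0.01 ± 0.16, 0.28 ± 0.17, -0.17 ± 0.16 and -0.21 ± 0.16 in the same order, and the 2 probes correlated at r = 0.22 over the 47 mice. Sex and genotype averaged over treatments did not pass the test at either *Shq1* probe or at any *Pknox1* probe.

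**Figure D3:**
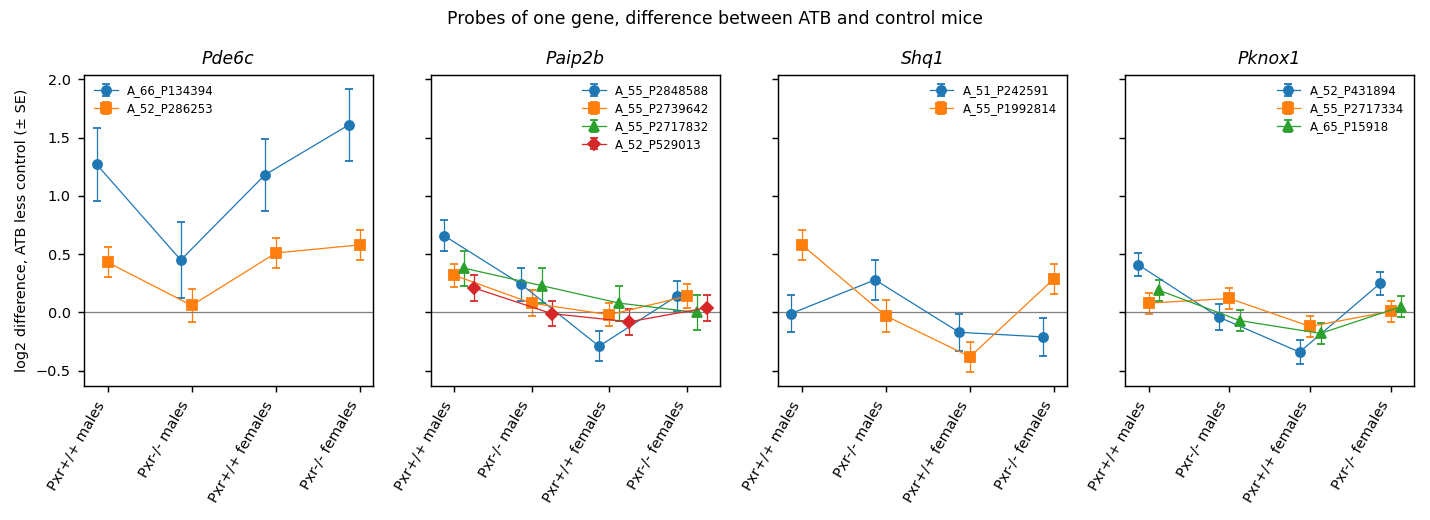
Difference between ATB and control mice (log2, ± SE) at each probe of the 4 genes with more than 1 probe, in Pxr+/+ and Pxr-/- males and females; each color and symbol is 1 probe. In females both *Pde6c* probes were higher with ATB, at different size. In males the dimmer *Pde6c* probe was well above background in only 3 of 23 mice. The *Shq1* probes did not run in parallel, with 0.58 against -0.01 in Pxr+/+ males.

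Read as calls (false discovery rate up to 0.05 over all probes and a fold change above 1.2), the ATB difference of 7 of the 9 genes was called in Pxr+/+ males (1.36% of all genes tested), of 1 in Pxr-/- males (*Moxd1*; 0.11%), of 1 in Pxr+/+ females (*Mypop*; 0.0183%) and of 2 in Pxr-/- females (*Clec2h* and *Pde6c*; 0.0457%). These counts restate how the genes were chosen, and nothing is read from them. At the brightest probe, the ATB and control mice did not overlap for 4 genes that were higher and 1 that was lower with ATB in Pxr+/+ males (3.72% and 0.242% of all genes), for 1 and 1 in Pxr-/- males (0.69% and 0.315%), for 1 and 1 in Pxr+/+ females (0.11% and 0.261%) and for 2 and 1 in Pxr-/- females (0.608% and 0.128%). The count in Pxr+/+ females depended on 1 array: without Pxr+/+ control female 1, *Clec2h*, *Pde6c* and *Mypop* were called there (148 of all genes, 0.677%, against 4 with it), and without Pxr+/+ ATB female 1, *Mypop* alone (12 genes, 0.0549%). Without both, the same 3 genes were called (169 genes, 0.773%), and *Wfdc2* joined *Clec2h* and *Pde6c* in Pxr-/- females (64 genes, 0.293%). On the control array *Clec2h* stood at 6.72 and *Pde6c* at 8.73, against means of 5.82 and 7.56 in the other 5 control mice.

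The sex difference averaged over treatments was called for 4 of the 9 genes in Pxr+/+ mice (27.7% of all genes) and for 6 in Pxr-/- mice (31.3%). It includes the ATB and control mice that served to choose the genes. Among the called genes, *Tff3* passed the filter on dim probes through the males. *Moxd1*, called in Pxr-/- mice, passed it through the male ATB groups. Nothing is read from the sex calls of *Tff3* and *Moxd1*. In control mice alone the sex difference was called for 6 genes in Pxr+/+ mice (*Tff3*, *Clec2h*, *Pde6c*, *Paip2b*, *Shq1* and *Pknox1*, against 36.6% of all genes). In Pxr-/- mice it was called for 5 (*Tff3*, *Clec2h*, *Pde6c* at its dimmer probe, *Mypop* and *Paip2b*, against 18.7%). *Moxd1*, most of whose control spots were not well above background, was not among them. That dimmer *Pde6c* probe passed the filter through the female ATB groups, and 0 of 5 Pxr-/- control males were well above background at it. Nothing is read from that call or from those of *Tff3*. The control mice also served to choose the genes, so calls in control mice alone are not free of that choice. In Pxr+/+ control mice the sex difference of *Paip2b* (A_55_P2848588), *Shq1* (A_55_P1992814) and *Pknox1* (A_52_P431894) was -0.55, -0.54 and -0.39. In Pxr+/+ ATB mice it was 0.40, 0.42 and 0.35. All males stood above all females for 2 of the 9 genes in each genotype, *Tff3* and *Clec2h* (0.759% of all genes in Pxr+/+ and 0.873% in Pxr-/- mice). For *Tff3* the filter was passed through the males, so nothing is read from this. Averaged over treatments, males were called higher for *Clec2h* in both genotypes and for *Mypop* in Pxr-/- mice (4% and 3.47% of all genes). They were also higher for *Tff3* in both genotypes and for *Moxd1* in Pxr-/- mice, from which nothing is read. *Pde6c* and *Paip2b* were lower in males in both genotypes (23.8% and 27.9% of all genes). The median log2 difference of the 9 genes was -0.02 in Pxr+/+ and 0.03 in Pxr-/- mice. The scaling of the arrays sets the balance of such calls over all genes: the share of called genes that were higher in males was 14.4% in Pxr+/+ and 11.1% in Pxr-/- mice, and 45.1% and 48.1% after quantile normalization. The genotype difference was called for *Moxd1* in males (1.6% of all genes) and for 0 of the 9 genes in females (2.99%). Its dependence on sex was called for *Moxd1* (0.0914%). Neither *Moxd1* call was made in control mice alone, where most of its spots were not well above background. Both draw on the ATB males that singled the gene out, and its probe passed the filter on dim probes through the male ATB groups. Nothing is read from these calls.

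**Figure D4:**
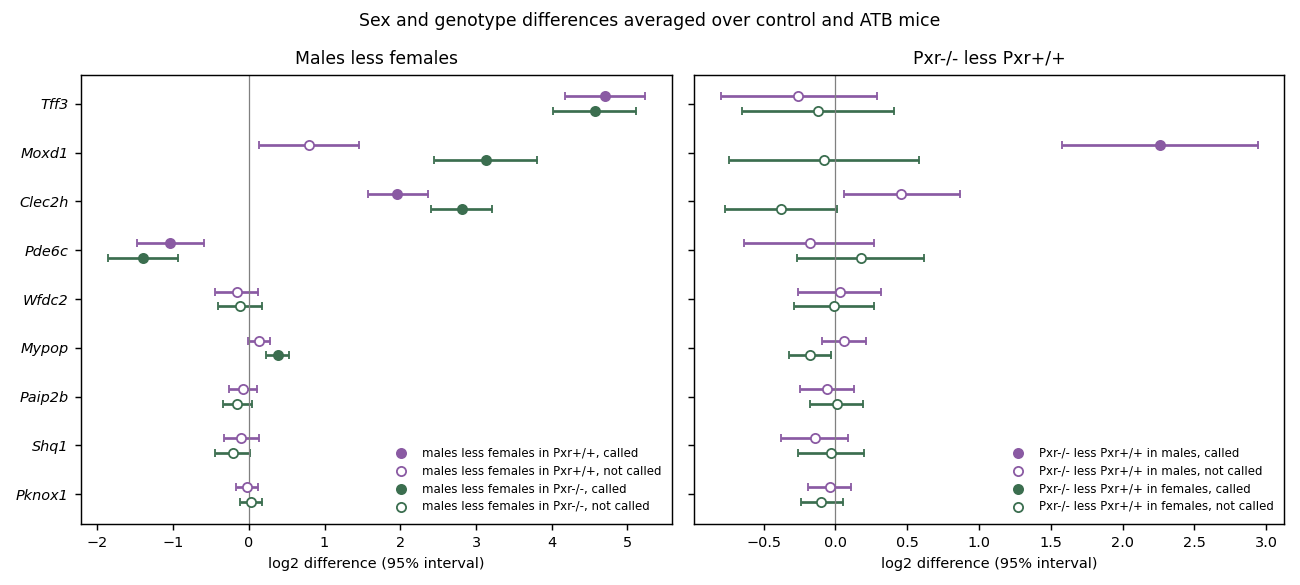
Sex difference (left) and genotype difference (right) of the brightest probe of each gene, averaged over control and ATB mice (log2, with 95% intervals); filled points were called. *Tff3* and *Clec2h* lay far above 0 for males less females, *Pde6c* below 0, and *Moxd1* in males was the only called genotype difference, at 3.61 in ATB and 0.91 in control mice. The *Tff3* and *Moxd1* probes passed the filter on dim probes through males, so their filled points are not read as tests.

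Of 66 listed relatives and partners of the 9 genes, 47 were tested. With ATB, 1 of the 47 was called higher in Pxr+/+ males, *Pde6g*, an inhibitory subunit of the rod phosphodiesterase, at 1 of its 2 probes, and in the other 3 combinations 0 were. By sex, 15 of 47 were lower and 0 higher in Pxr+/+ males than in females, and 17 were lower and 1 higher in Pxr-/- mice, against the shares of 23.8% and 27.9% lower over all genes. The relatives of *Wfdc2* contributed 6 of 9 lower in males in each genotype, among them *Wfdc1* (-0.65 and -0.50) and *Wfdc15b* (-0.64 and -0.77), while *Wfdc2* itself did not pass the test. *Clec2e*, a relative of *Clec2h*, was higher in Pxr-/- males by 0.37 (adjusted p = 0.000768), whereas the receptor genes *Klrb1a* (-0.56 and -0.57) and *Klrb1c* (-0.71 and -0.55) were lower in males in both genotypes. Among the genotype differences, *Wfdc17* was lower in Pxr-/- females by -0.76 (adjusted p = 0.0371). The other trefoil factors, *Tff1* and *Tff2*, were too dim to be tested.

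The genes whose level followed each of the 9 most closely over the 47 mice are given as a description, because the mice share the 8 groups. *Omd* (r = 0.95) and *Scara5* (0.94) were most like *Tff3*, and after removal of the group means the correlations were 0.25 and 0.60. *Pcdhb1* (0.79) and *Olfr677* (0.78) were most like *Moxd1*. *Nox4* (0.90) and *Sult2a8* (0.89) were most like *Clec2h*, with 0.41 and 0.24 within groups. *Pde6c* was followed by *C630043F03Rik* (0.85) and *Rdh9* (0.84), *Wfdc2* by *March9* (0.78) and *Prxl2b* (0.77), and *Mypop* by *Csad* and *Comtd1* (0.80 each). *Toe1* (0.82) and *Bhmt2* (0.79) followed *Paip2b*, *Hrh4* (0.75) and *P2rx2* (0.71) *Shq1*, and *Gon4l* (0.75) and *Hspb11* (0.74) *Pknox1*. For the latter 3 genes the correlation within groups was nearly as high (0.66 to 0.75), and for *Wfdc2* it was 0.59 and 0.67. Each partner was picked as the most correlated of all genes, so high values follow from the search and nothing is read from them. Among the 9 genes themselves, *Tff3* and *Clec2h* had the highest correlation (0.87, and 0.21 within groups), and *Paip2b* and *Pknox1* the highest within groups (0.62, and 0.71 over all mice).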

How the data were processed

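The authors hybridized liver RNA to 1-color Agilent arrays and read them with Feature Extraction 10.10.1.1, and the deposited scanner files give spot intensity on a linear scale. A further deposited table holds the authors' own log2 values, filtered, corrected for wash batch and normalized with CrossNorm, and it served as an alternative. Neither the authors' filter nor their stacking is stated, and both were chosen here. Median spot signals were put on a log2 scale without background subtraction, which shrinks the fold change of dim probes. Control spots and 422 values marked non-uniform were left out, the effect of the 3 wash batches was removed, and CrossNorm was run with 300 draws of 1 array from each of the 8 groups. Probes that passed the scanner's test of being well above background in 5 or more mice of a group were tested with limma 3.58.1 (R 4.3.3, data.table version 1.17.8), as a single linear model of the 8 groups and the wash batch on 47 arrays. A call needed a Benjamini-Hochberg adjusted p of at most 0.05 and a fold change above 1.2, and a gene was called by at least 1 probe. Sex and genotype contrasts were averaged over control and ATB mice.

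Groups came from the sample labels. The 9 genes, the lists of relatives and markers and the tests were chosen with earlier results of these data known. The genes named are the 9 with all their probes, relatives called in a comparison described, and the 2 genes most correlated with each; a few others were named as markers. In a simulation of males less females in Pxr+/+ mice on the 32975 probes, 94% of changes of 0.5 (log2) were called. It drew independent normal noise for each probe, without normalization, wash batches or a background limit. It covered the average over treatments only, so it does not describe dim probes or tests in control or ATB mice alone. Probe coordinates are of build mm9, from the array files. Alternatives tried were quantile normalization, no normalization, the processed signal less its 75th percentile, normexp with an offset of 50, the authors' log2 values, no filter, a filter on all arrays, no wash batch, slide as a random block, the replicate number as a block, only the groups compared, control or ATB mice only, each array left out, and, chosen after seeing the data, leaving out the 2 resembling female arrays. Replicates are separate mice, and the number of arrays limits the precision.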

Additional observations from a re-analysis of the deposited data

Results flagged for a closer look

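The spread within a group held 1 mouse apart from the others in 8 of 128 groups of a probe, where chance alone gives about 1 in 20, or 6.4. The share of the group's range taken by the gap to the nearest mouse was 0.63 for *Pde6c* (A_52_P286253) in Pxr+/+ control males, mouse 4, and 0.64 in Pxr+/+ ATB males, mouse 5. It was 0.65 for *Paip2b* (A_55_P2848588) in Pxr-/- ATB male 4 and 0.72 for *Paip2b* (A_55_P2717832) in Pxr-/- ATB male 3. *Shq1* (A_51_P242591) had 0.77 in Pxr+/+ control male 5, at a level of 6.72 against 5.87 for the next mouse, and 0.71 in Pxr-/- control female 1, at 7.02 against 6.16. *Shq1* (A_55_P1992814) had 0.67 for the low mouse among Pxr+/+ control females, mouse 4, and *Pknox1* (A_65_P15918) 0.76 in Pxr+/+ control male 1.

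The genotype difference of *Moxd1* was larger in males than in females by 2.34 on the log2 scale (limma on the difference itself, adjusted p = 0.0275). The value draws on the ATB males that singled the gene out and on females at background, so nothing is read from its p-value. In control mice alone, most of whose spots were not well above background, it was 1.01 and was not called. The call was also lost with the processed signal (3.58, adjusted p = 0.0547), with normexp (1.87, 0.0529), without the resembling arrays (2.28, 0.0667) and without Pxr-/- control male 4 (2.15, 0.0564). In other cases every ATB mouse moved one way against the control mean in one combination of sex and genotype and the other way in another, and the difference was not tested. *Shq1* (A_55_P1992814) differed with ATB by 0.58 in Pxr+/+ males, -0.38 in Pxr+/+ females and 0.29 in Pxr-/- females. *Pknox1* (A_52_P431894) differed by 0.41 in Pxr+/+ males and -0.34 in Pxr+/+ females, and *Pknox1* (A_65_P15918) by 0.19 and -0.18.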

How the results depend on the processing

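The sex calls of *Clec2h* kept direction and side of the threshold under every alternative. Those of *Tff3* did so wherever the probe was kept. However, it passed the filter on dim probes through the males, so nothing is read from them. A filter on all arrays dropped *Tff3* and *Moxd1*. The number of the 9 genes called for sex was 4 in Pxr+/+ and 6 in Pxr-/- mice; under the alternatives it ran from 3 to 8, the latter with ATB mice only, and from 4 to 6. In Pxr+/+ mice *Moxd1* (0.85) and *Mypop* (0.27) gained a call and *Paip2b* lost it with quantile normalization; in Pxr-/- mice *Paip2b* lost it with quantile normalization, normexp and ATB mice only, and *Moxd1* and the brighter *Pde6c* probe with control mice only. The genotype call in males (1 gene, *Moxd1*) became 0 with the filter on all arrays and with control mice only. The count in females, 0, was 2 with control mice only (*Shq1* and *Pknox1*). Counts with control or ATB mice only draw on the mice that served to choose the genes. Such counts are given here without the share of all genes called in the same setting, so nothing is read from them. The dependence of genotype on sex (1 gene, *Moxd1*) became 0 with the processed signal, normexp, the filter on all arrays, control mice only and without the resembling arrays. Leaving out each mouse in turn gave 3 to 5 and 6 to 6 genes for sex, 1 to 1 and 0 to 0 for genotype in males and females, and 0 to 1 for the dependence. Males less females in Pxr+/+ mice turned from negative to positive with ATB mice only for *Paip2b* (A_55_P2848588), to 0.40, for *Shq1* (A_55_P1992814), to 0.42, and for *Pknox1* (A_52_P431894), to 0.35; with control mice only these were -0.55, -0.54 and -0.39. The replicate numbers do not pair mice (median correlation of same-numbered mice -0.05; best match with their own number in 8 of 47), and with the replicate block the counts were 4, 6, 1, 0 and 1. Over all genes, 6837 were called for sex in Pxr-/- mice, 3970 with quantile normalization and 2864 with normexp, which changes background and normalization together. The genotype count in females, 654, ran from 364 to 1116 when each mouse was left out, and the count for the dependence, 20, was 5 with the filter on all arrays. With quantile normalization 35% of the ATB calls in Pxr+/+ males were higher, against 85.6%. Fold changes of dim probes are limited by signal over background: with the background-subtracted processed signal the ATB difference of *Moxd1* was 3.39 in Pxr+/+ and 5.94 in Pxr-/- males. The causes were not tested.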
